A study of Homo sapiens with 14 samples.

Results

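The glucocorticoid receptor gene NR3C1 and 9 genes around it were followed across nascent transcription profiles of A549 cells, a human lung adenocarcinoma line that is widely used to study glucocorticoid action. The 10 genes were chosen by name, with earlier results of these data known. They were the receptor, its immunophilin partners FKBP5 and FKBP4, the target TSC22D3, the coactivators NCOA1, NCOA2 and NCOA3, and the coregulators NRIP1, EHMT2 and NCOR1. All 10 were found among the 58780 genes of the count table, and all 10 passed the expression filter that left 21910 genes. PRO-seq (precision run-on sequencing) reads RNA that engaged RNA polymerases extend with labelled nucleotides, so it follows transcription and not the stored message.

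The 14 libraries formed 7 groups of 2. Untreated cells carried the 15 min label. GSK591, an inhibitor of the arginine methyltransferase PRMT5, or MS023, an inhibitor of the type I arginine methyltransferases, was given at 1 µM for 15 min, for 15 min together with 100 nM dexamethasone (Dex, a synthetic glucocorticoid), or for 3 h. All groups carried 0.01% DMSO per the labels. Neither Dex alone nor a 3 h untreated control is analysed here, so each Dex effect was measured on top of an inhibitor, and at 3 h the inhibitor and the time in culture cannot be told apart. The labels do not say that the 2 libraries of a group came from separate cultures, so the p-values measure only the spread between these libraries, which may be technical.

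The receptor waits in the cytoplasm in a complex with the chaperone HSP90, where FKBP5 lowers its affinity for hormone and FKBP4 links it to transport toward the nucleus. Hormone-bound receptor enters the nucleus, binds DNA elements and recruits coactivators or corepressors. FKBP5 is itself a target of the receptor, so its product closes a short negative feedback loop, and TSC22D3 encodes GILZ, a leucine zipper protein that carries part of the anti-inflammatory action of glucocorticoids.

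FKBP5 and TSC22D3 are the members whose transcription rose with Dex, and their promoter windows (300 bases around a start site, RefSeq, GRCh38.p14, all on the minus strand) are shown for that reason. FKBP5 has 2 windows in that table and TSC22D3 has 4, of which the first and the last along the gene are given. Capitals mark AGAACA, one repeat of the receptor's palindromic element.
FKBP5, chr6:35728534-35728833: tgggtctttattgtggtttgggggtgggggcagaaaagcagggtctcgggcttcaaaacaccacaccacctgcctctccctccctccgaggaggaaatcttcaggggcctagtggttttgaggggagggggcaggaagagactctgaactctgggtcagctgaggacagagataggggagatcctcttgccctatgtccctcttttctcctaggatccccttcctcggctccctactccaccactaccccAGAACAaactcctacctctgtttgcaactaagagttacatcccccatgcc
FKBP5, chr6:35688866-35689165: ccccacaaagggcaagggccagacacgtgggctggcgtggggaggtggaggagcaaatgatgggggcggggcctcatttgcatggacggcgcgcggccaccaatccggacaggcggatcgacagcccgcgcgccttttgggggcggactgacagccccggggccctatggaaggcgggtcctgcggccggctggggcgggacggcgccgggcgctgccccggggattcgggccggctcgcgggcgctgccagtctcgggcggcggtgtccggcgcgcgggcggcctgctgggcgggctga
TSC22D3, chrX:107775939-107776238: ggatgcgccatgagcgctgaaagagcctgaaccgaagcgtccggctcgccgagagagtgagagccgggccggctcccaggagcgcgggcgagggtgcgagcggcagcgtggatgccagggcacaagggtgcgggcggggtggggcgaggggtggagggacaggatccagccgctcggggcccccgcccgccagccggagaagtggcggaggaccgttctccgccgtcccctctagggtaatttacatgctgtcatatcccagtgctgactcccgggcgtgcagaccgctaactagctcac
TSC22D3, chrX:107716459-107716758: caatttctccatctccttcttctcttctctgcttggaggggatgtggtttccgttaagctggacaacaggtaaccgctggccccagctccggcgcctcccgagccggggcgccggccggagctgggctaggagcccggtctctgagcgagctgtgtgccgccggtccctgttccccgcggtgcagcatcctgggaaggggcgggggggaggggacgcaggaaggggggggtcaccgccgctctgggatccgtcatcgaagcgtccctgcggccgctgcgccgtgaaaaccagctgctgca

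AGAACA, read on both strands and therefore also as TGTTCT, was present in 2 of the 23 promoter windows that the table holds for 8 of the 10 genes: the upstream FKBP5 window, where it begins at the start base, and 1 window of NCOA1 (chr2:24491004-24491303). Over all 35116 windows of the same length, 14.8% held it. The full palindrome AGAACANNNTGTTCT, which contains that repeat, was in 1 window (0.00285%) and the looser GNACANNNTGTNC, which every full palindrome also matches, in 137 (0.39%), and no window of the 10 genes held either. A match describes the letters of a window and not a bound site.

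Total counts per library ran from 5768312 to 9606938, and mitochondrial genes took 39.8% to 57.99% of them. The GSK591 with Dex libraries stood apart from each other: their counts differed by a chi-square of 15.4 per degree of freedom, against 2.15 to 6.05 in the other 6 groups, and replicate 2 had the highest mitochondrial share. The epithelial keratin genes KRT8 (259 to 353 CPM, read counts scaled to a common library size with TMM) and KRT18 (119 to 178 CPM) and the A549 enzyme genes ALDH1A1 and AKR1B10 (81.5 CPM or more) were read in every library, while EPCAM and CDH1 were low and the lung lineage factor NKX2-1 reached at most 3 counts. Among markers of leukocytes, endothelium and fibroblasts, CD3E was at 0 in all libraries, PTPRC, VWF and COL1A2 reached at most 2 counts and PECAM1, CDH5 and PDGFRA at most 10. COL1A1 (4.83 to 7.88 CPM), THY1 (2.21 to 4.67 CPM) and CD68 (0.81 to 3.37 CPM) were read in every library. Summed per library, endothelial markers ran from 0.24 to 1.84 CPM and fibroblast markers from 8.45 to 11.7 CPM. Scaling by library size alone in place of TMM gave all genes a median log2 fold change of -0.21 in the Dex comparison beside GSK591 and of -0.19 beside MS023, and fold changes are given on the TMM scale.

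**Figure D1:**
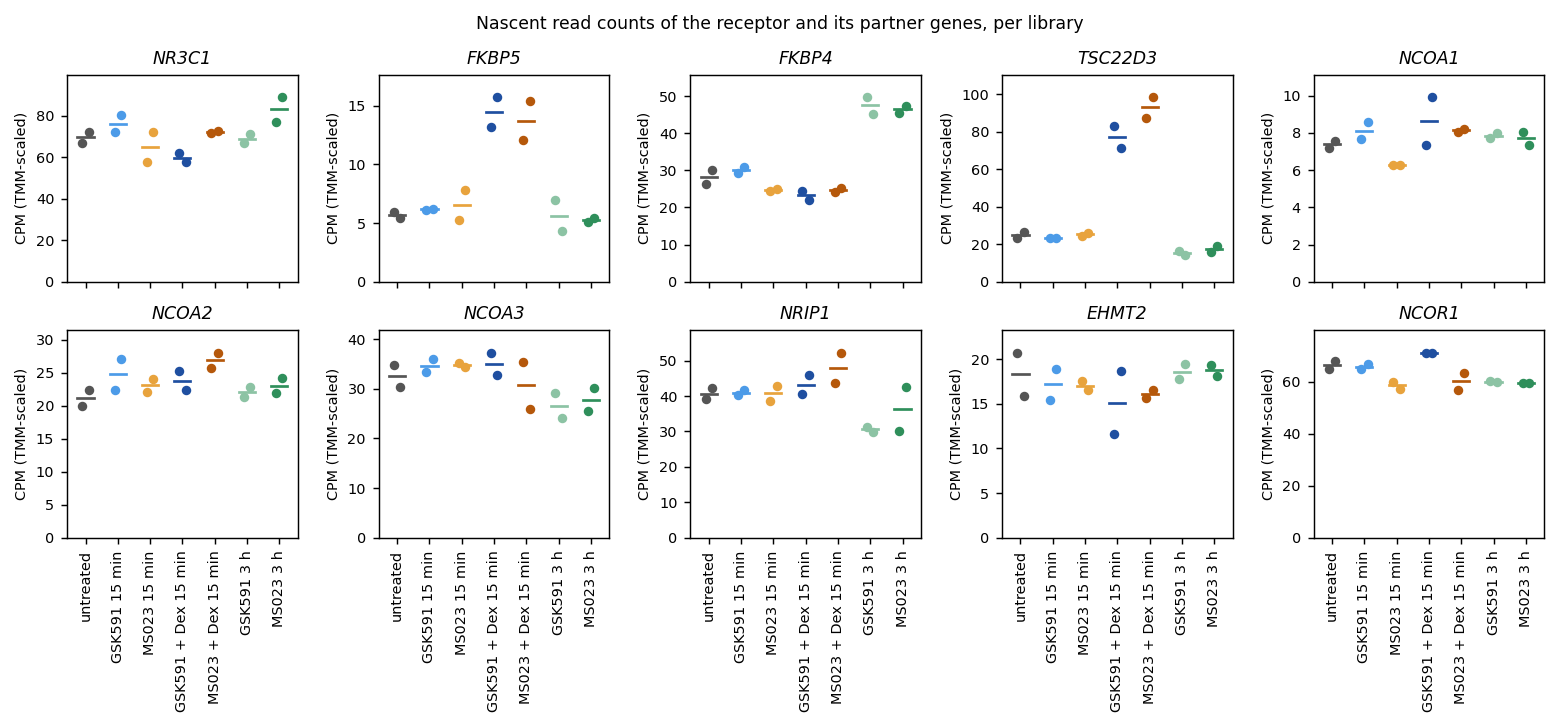
TMM-scaled CPM (y axis, linear, from 0) of each of the 10 genes in each of the 14 libraries (points) by group (x axis), with the group mean as a bar. The 4 Dex libraries sit above all others for FKBP5 and TSC22D3, and the 4 libraries at 3 h sit above all others for FKBP4.

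In untreated cells the genes were ordered by CPM per kb of exon. This scale compares genes only if reads were counted within exons, and the counting feature is not given in the sources used here. NR3C1 was highest at 7.59 ± 0.41 CPM per kb (SD, n = 2). FKBP4 (5.44), TSC22D3 (5.23) and NRIP1 (4.79) followed, and within this run neighbouring genes overlapped between libraries. NCOR1 (4.33), NCOA3 (3.88), EHMT2 (2.51) and NCOA2 (2.12) came next, with EHMT2 and NCOA2 overlapping. NCOA1 stood at 0.85 ± 0.03 and FKBP5 was lowest at 0.54 ± 0.03 CPM per kb (SD, n = 2). FKBP5 had 55 and 50 reads in the untreated libraries. Per kb of gene span in place of exon, the ends of the order changed: FKBP4 was highest at 2.69 CPM per kb, NR3C1 was at 0.44 and ranked 3, and FKBP5 (0.037) stood above NCOA1 (0.026), the lowest. On both scales FKBP5 and NCOA1 were the lowest of the 10, and the changes between groups do not depend on the length used. The exons of NR3C1, FKBP5, NCOA1 and NCOA2 overlap no other gene, whereas 11.4% of the exon bases of FKBP4, 8.12% of EHMT2 and 7.64% of NRIP1 are shared with another gene, and because no strand setting is given those shared reads cannot be assigned.

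Dex raised FKBP5 and TSC22D3 within 15 min beside either inhibitor, 2 of the 10 genes, where 3.7% of all tested genes were called beside GSK591, 8.97% beside MS023 and 12.5% in the average of both. Both genes were chosen as known targets of the receptor, so their count is no independent evidence of enrichment. The Dex comparison asks how the receptor's own genes respond to hormone in the presence of an inhibitor of PRMT5 or of the type I enzymes. The activity of these enzymes is not read here. FKBP5 (ENSG00000096060.14, chr6:35573585-35728583, GRCh38, minus strand) stood at 6.12 and 6.20 CPM with GSK591 alone and at 13.2 and 15.8 CPM once Dex was added. With MS023 alone it was at 5.30 and 7.81 CPM, and with MS023 and Dex at 12.0 and 15.4 CPM. Every Dex library lay above every library without Dex, including the untreated ones at 5.91 and 5.47 CPM. The log2 fold change was 1.23 ± 0.21 (SE) beside GSK591 (adjusted p = 3.0e-04, edgeR quasi-likelihood test with Benjamini-Hochberg adjustment over all genes) and 1.10 ± 0.21 beside MS023 (adjusted p = 3.2e-04). Averaged over both inhibitors the rise was 2.24-fold (log2 1.16, 95% interval 0.86 to 1.47, adjusted p = 3.23e-07). FKBP5 rests on 49 to 135 reads in these libraries, and leaving out replicate 1 of MS023 at 15 min took its call beside MS023 away (0.81, adjusted p = 0.0824).

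TSC22D3 (ENSG00000157514.16, chrX:107713221-107777342, minus strand) went from 23.4 CPM in both libraries with GSK591 alone to 82.9 and 71.3 CPM with Dex added. Beside MS023 it went from 24.3 and 26.1 to 87.4 and 98.5 CPM. The 4 Dex libraries did not overlap with any of the other 10, whose highest value was 26.3 CPM in an untreated library. The log2 fold change was 1.72 ± 0.12 (SE) beside GSK591 and 1.89 ± 0.11 beside MS023 (edgeR adjusted p = 7.73e-14 and 1.41e-15). Averaged, the rise was 3.49-fold (log2 1.80, 95% interval 1.64 to 1.97, adjusted p = 6.32e-20). It ranked 2 by p and 30 by size among all genes, whereas FKBP5 ranked 134 and 126. Each count sums the reads of a gene, so a change within 15 min in only part of a long gene would be diluted. Where along a gene the reads lay was not examined, so these sizes do not rank the response at the start sites. The same genes rose when the Dex groups were set against untreated cells: FKBP5 by 1.34 ± 0.21 and 1.27 ± 0.21 and TSC22D3 by 1.63 ± 0.11 and 1.90 ± 0.11 on the log2 scale, for GSK591 and MS023, where 5.85% and 7.66% of all genes were called. These comparisons share the Dex libraries with those above. In the authors' deposited table for the same groups against control, FKBP5 is given at 1.39 and 1.32 and TSC22D3 at 1.55 and 1.82 on the log2 scale, with adjusted p-values of 0.029, 0.038, 8.92e-12 and 4.74e-17.

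Leaving out GSK591 with Dex replicate 2, the library with the highest mitochondrial share, gave log2 fold changes of 1.11 for FKBP5 and 1.84 for TSC22D3 beside GSK591 by edgeR. With each library of this comparison left out in turn, the values ran from 1.11 to 1.35 for FKBP5 and from 1.60 to 1.84 for TSC22D3. In a culture, a change in all cells and a larger change in some of them cannot be told apart.

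**Figure D2:**
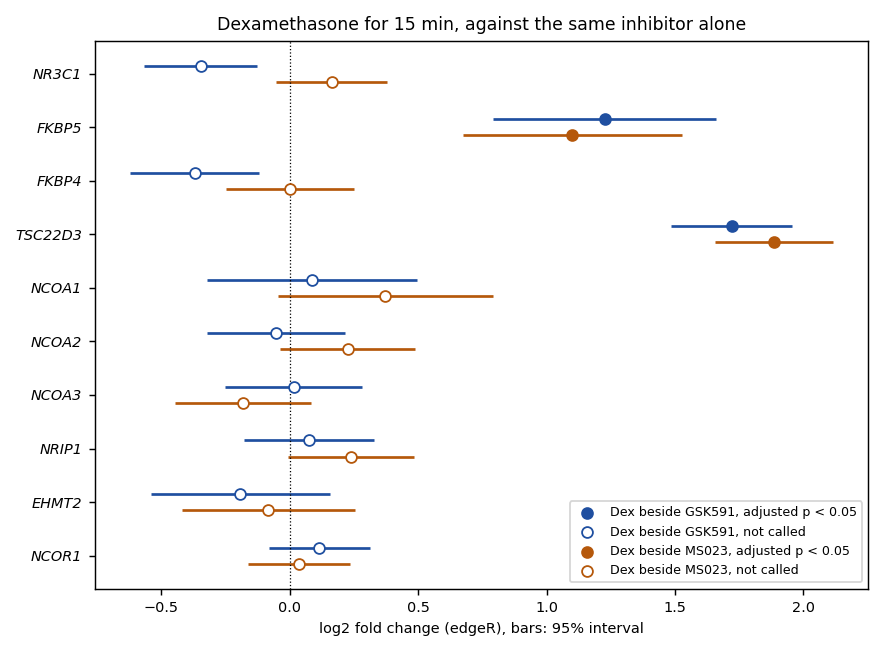
Log2 fold change of each of the 10 genes (x axis) for Dex added to GSK591 (blue) or to MS023 (orange), with bars for the 95% interval and filled points for an adjusted p under 0.05. FKBP5 and TSC22D3 are filled for both inhibitors at 1.10 to 1.89, and the other 8 genes are open.

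By edgeR on all 14 libraries, with TMM scaling and no replicate block, NR3C1 itself (ENSG00000113580.14, chr5:143277931-143435512, minus strand) was not called in any Dex comparison. It was called lower beside GSK591 with library size alone or with a replicate block, as given below. It stood at 72.2 and 80.2 CPM with GSK591 alone and at 62.1 and 57.7 CPM with Dex added, a log2 fold change of -0.35 ± 0.11 (SE, edgeR adjusted p = 0.0638). Beside MS023 it was at 57.6 and 72.1 CPM and, with Dex, at 71.7 and 72.5 CPM (0.16 ± 0.11, adjusted p = 0.426). The libraries did not overlap beside GSK591 and overlapped beside MS023. The difference between these 2 effects was -0.51 ± 0.15 (edgeR unadjusted p = 0.00181, adjusted p = 0.0977), short of the threshold, and without replicate 2 of MS023 at 15 min, the shallowest library, it was -0.67 (adjusted p = 0.0234). Averaged over the inhibitors the effect was -0.09, with a 95% interval of -0.25 to 0.06.

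FKBP4 (ENSG00000004478.7, chr12:2794953-2805423, plus strand), which encodes the other HSP90-binding immunophilin of the receptor complex, was not called with Dex. Its libraries were at 29.2 and 31.0 CPM with GSK591 and 24.5 and 22.0 CPM with Dex added (-0.37 ± 0.12 SE, edgeR adjusted p = 0.0894), and at 24.4 and 25.1 CPM with MS023 and 24.1 and 25.3 CPM with Dex added (0.00 ± 0.12, adjusted p = 0.999). The averaged effect was -0.19, with a 95% interval of -0.36 to -0.01 and an adjusted p of 0.176. With scaling by library size alone, NR3C1 (-0.55, adjusted p = 0.0181) and FKBP4 (-0.57, adjusted p = 0.0209) were called lower beside GSK591, and both were also called lower in the average (-0.29 and -0.38).

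By edgeR on all 14 libraries the coregulator genes were not called in any Dex comparison. The coactivators NCOA1, NCOA2 and NCOA3, which recruit histone acetyltransferases to the receptor, gave averaged log2 fold changes of 0.23 (95% interval -0.06 to 0.52), 0.09 (-0.10 to 0.27) and -0.08 (-0.27 to 0.10). NRIP1, a ligand-dependent corepressor, gave 0.16 (-0.02 to 0.33), and NCOR1, the scaffold of an HDAC3 corepressor complex, gave 0.08 (-0.06 to 0.22). EHMT2, a histone lysine methyltransferase that works with the receptor at some genes, gave -0.14 (-0.38 to 0.11). Changes of any size within these intervals remain compatible with the data, and the interval was widest for NCOA1, which had 42 to 74 reads per library. For these genes, as for NR3C1, a change in only part of the gene would be diluted in the count. Across all 14 libraries NCOR1 ran from 56.8 to 71.3 CPM, NCOA2 from 20.0 to 28.1 CPM, EHMT2 from 11.6 to 20.8 CPM and NCOA1 from 6.27 to 9.95 CPM. NCOA2 was at 0.34 ± 0.13 (SE) for MS023 with Dex against untreated cells (edgeR adjusted p = 0.10), and with only the groups compared in the fit it was called (0.34, adjusted p = 0.048). The lowest EHMT2 value was 1 of the 2 GSK591 with Dex libraries, whose other library was at 18.7 CPM.

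Whether Dex acted differently beside GSK591 and beside MS023 was tested directly, and none of the 10 genes was called, where 1.15% of all genes were (edgeR, with 2 members, NR3C1 and FKBP4, at an unadjusted p under 0.05, and DESeq2 also called none). The difference was 0.13 for FKBP5 (95% interval -0.49 to 0.75, adjusted p = 0.945) and -0.17 for TSC22D3 (-0.50 to 0.17, adjusted p = 0.804). Differences of any size within those intervals remain compatible with the data from 2 libraries a group. For TSC22D3 the lowest MS023 with Dex library, at 87.4 CPM, was above the highest GSK591 with Dex library, at 82.9 CPM.

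Neither inhibitor alone called any of the 10 genes at 15 min against untreated cells by edgeR, where 0.306% of all genes were called for GSK591 and 0.183% for MS023, and no member had an unadjusted p under 0.05 or was called by DESeq2 in either comparison. FKBP5 was at 0.11 (95% interval -0.37 to 0.60) and 0.17 (-0.32 to 0.65) on the log2 scale for GSK591 and MS023, and TSC22D3 at -0.09 (-0.35 to 0.17) and 0.01 (-0.24 to 0.27). NR3C1 was at 0.13 (-0.08 to 0.34) and -0.11 (-0.33 to 0.10). Set against each other at 15 min, the inhibitors called no member by edgeR or DESeq2, beside 1.09% of all genes by edgeR. NR3C1 (0.24 ± 0.11 SE, unadjusted p = 0.0286) and FKBP4 (0.28 ± 0.12, unadjusted p = 0.0236) were higher with GSK591 by edgeR before adjustment and not after it (adjusted p = 0.417 and 0.391).

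At 3 h FKBP4 was higher, and TSC22D3 lower, than at 15 min with either inhibitor. FKBP4 stood at 49.8 and 45.1 CPM after GSK591 and at 45.4 and 47.4 CPM after MS023, above all 10 libraries at 15 min, of which the highest was 31.0 CPM. Against the same inhibitor at 15 min the log2 fold change was 0.66 ± 0.11 (SE) for GSK591 and 0.91 ± 0.12 for MS023 (edgeR adjusted p = 1.15e-04 and 2.23e-07), and against untreated cells it was 0.75 ± 0.11 and 0.72 ± 0.11 (adjusted p = 3.44e-06 and 1.18e-05). The 3 h libraries are the same in both sets. Averaged over inhibitors FKBP4 rose 1.72-fold (log2 0.78, 95% interval 0.62 to 0.94). The authors' deposited table gives 0.668 and 0.633 against control, with adjusted p-values of 0.013 and 0.0341.

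TSC22D3 was lower at 3 h, at 16.1 and 14.3 CPM after GSK591 and 15.7 and 19.0 CPM after MS023, below all 10 libraries at 15 min, of which the lowest was 23.4 CPM. The log2 fold change against 15 min was -0.62 ± 0.14 (SE) for GSK591 and -0.55 ± 0.14 for MS023 (edgeR adjusted p = 0.00364 and 0.00527), and against untreated cells -0.71 ± 0.13 and -0.53 ± 0.13 (adjusted p = 2.55e-04 and 0.00744). The call against 15 min was lost for MS023 without its 15 min replicate 2 (-0.50, adjusted p = 0.0539) or its 3 h replicate 1 (-0.41, adjusted p = 0.158), and for GSK591 without its 3 h replicate 2 (-0.54, adjusted p = 0.0883) or with library size alone (-0.56, adjusted p = 0.061). The call against untreated cells was lost for MS023 without untreated replicate 2 (-0.44, adjusted p = 0.174), without MS023 3 h replicate 1 (-0.39, adjusted p = 0.234) or with library size alone (-0.51, adjusted p = 0.0776). In the average of both inhibitors, a comparison added after the data were seen, TSC22D3 fell by 0.58 on the log2 scale (adjusted p = 1.82e-05) and stayed called in all 15 alternatives. In the authors' deposited table TSC22D3 is at -0.78 (adjusted p = 0.00814) for GSK591 and -0.601 (adjusted p = 0.0979) for MS023 against control.

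FKBP5 was not called at 3 h. It was at 6.96 and 4.30 CPM after GSK591 and 5.12 and 5.40 CPM after MS023, and the average change against 15 min was -0.20 on the log2 scale (95% interval -0.55 to 0.15, edgeR adjusted p = 0.475). NR3C1 was at 77.1 and 89.2 CPM after 3 h of MS023, above both 15 min libraries of that inhibitor (0.36 ± 0.11 SE, adjusted p = 0.018), and at 66.9 and 71.3 CPM after GSK591 (-0.14 ± 0.10, adjusted p = 0.49). Against untreated cells it was not called for MS023 (0.25 ± 0.10, edgeR adjusted p = 0.143) or GSK591 (-0.01 ± 0.10, adjusted p = 0.971). The MS023 call was lost without MS023 15 min replicate 1 (0.20, adjusted p = 0.42), without MS023 3 h replicate 2 (0.28, adjusted p = 0.206) and with library size alone (0.21, adjusted p = 0.406). The difference between the inhibitors in this change, also added after the data were seen, was -0.51 ± 0.15 (edgeR unadjusted p = 0.00156, adjusted p = 0.127), and without MS023 15 min replicate 2 it was -0.67 (adjusted p = 0.0292). Both this difference and the one for Dex use the same 15 min libraries.

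NRIP1 was called lower at 3 h of GSK591, at 31.2 and 29.9 CPM against 40.3 and 41.7 CPM at 15 min (-0.42 ± 0.13 SE, edgeR adjusted p = 0.0338) and against untreated cells (-0.41 ± 0.12, adjusted p = 0.0243). These 2 calls were lost whichever library of the compared groups was left out (adjusted p from 0.0729 to 0.243), with library size alone and with DESeq2 (adjusted p = 0.0854 against untreated cells and 0.129 against 15 min). After MS023 its 3 h libraries were far apart at 30.2 and 42.5 CPM (-0.17 ± 0.13 against 15 min, adjusted p = 0.429). NCOA3 was lower in the average of both inhibitors (-0.36 ± 0.09, adjusted p = 0.00537) and NRIP1 likewise (-0.30 ± 0.09, adjusted p = 0.0146). Each of the averaged calls was lost without GSK591 3 h replicate 2 (-0.29, adjusted p = 0.0532, for NCOA3 and -0.29, adjusted p = 0.0569, for NRIP1) or without MS023 3 h replicate 1 (-0.29, adjusted p = 0.0522, and -0.18, adjusted p = 0.208). That of NRIP1 was also lost without 15 min replicate 2 of GSK591 (adjusted p = 0.0552) or of MS023 (adjusted p = 0.07) and with DESeq2 (-0.29, adjusted p = 0.0763). NCOA1, NCOA2, EHMT2 and NCOR1 were not called at 3 h in any comparison.

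The members called at 3 h were 3 of 10 for GSK591 and 2 for MS023 against untreated cells, beside 11% and 7.63% of all genes, and 3 for each against 15 min, beside 6.41% and 12% of all genes. In the average 4 were called beside 18.1%, and the difference between the inhibitors called none beside 0.561%. Between GSK591 and MS023 at 3 h, edgeR called no member and 0% of all genes, with 1319 genes at an unadjusted p under 0.05, and DESeq2 called 11 genes and no member. Of the members NR3C1 alone had an unadjusted p under 0.05 (-0.26 ± 0.10 SE, edgeR unadjusted p = 0.0152).

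**Figure D3:**
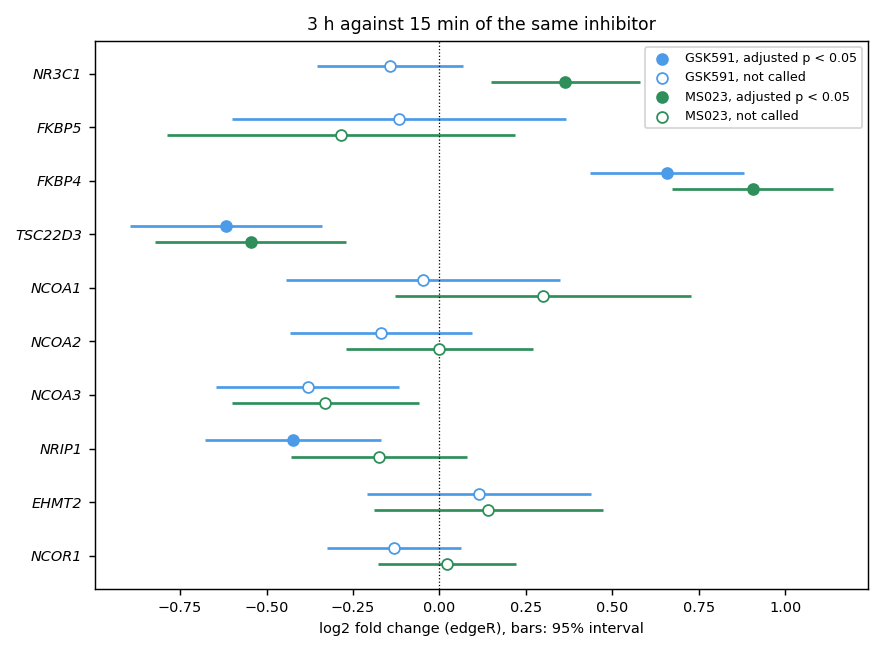
Log2 fold change of each of the 10 genes (x axis) for 3 h against 15 min of GSK591 (blue) or MS023 (green), with bars for the 95% interval and filled points for an adjusted p under 0.05. FKBP4 lies right of 0 at 0.66 and 0.91 and TSC22D3 left of 0 at -0.62 and -0.55, filled for both inhibitors.

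FKBP5 and FKBP4 were also described as a ratio of their levels per kb of exon within each library, which does not depend on the scaling between libraries. It was 0.109 and 0.0889 in untreated cells, 0.102 and 0.0975 with GSK591 for 15 min, and 0.106 and 0.152 with MS023 for 15 min. With Dex it was 0.262 and 0.349 beside GSK591 and 0.244 and 0.296 beside MS023. At 3 h it was 0.0682 and 0.0465 after GSK591 and 0.0551 and 0.0556 after MS023. The 4 Dex libraries were above, and the 4 libraries at 3 h below, the 6 others. The ratio restates the values above and was not tested.

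**Figure D4:**
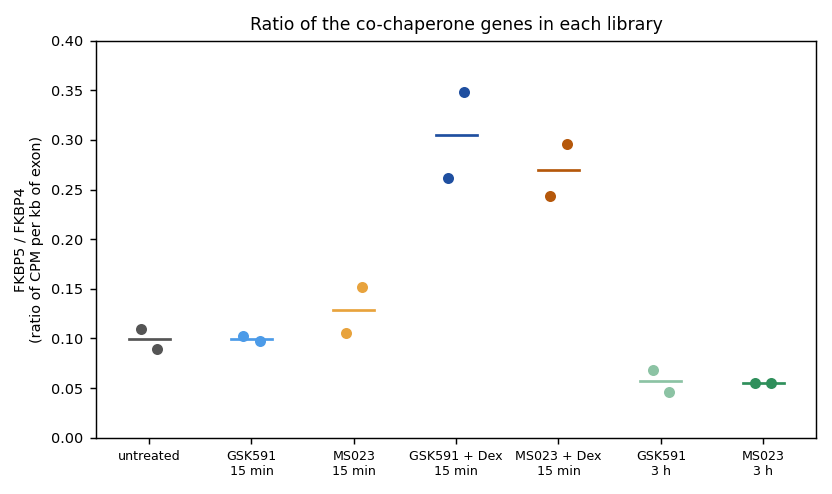
Ratio of FKBP5 to FKBP4, each in CPM per kb of exon (y axis, linear, from 0), in each of the 14 libraries by group (x axis), with the group mean as a bar. Libraries with Dex lie between 0.244 and 0.349, and those at 3 h between 0.0465 and 0.0682.

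Other glucocorticoid targets moved with FKBP5 and TSC22D3. Of 20 listed, 19 were tested and 16 were called higher in the averaged Dex comparison, none lower, with a median log2 fold change of 0.99 against 0.00 over all genes. They include PER1, a clock repressor (1.90 ± 0.09 SE), ERRFI1, an inhibitor of EGF receptor signalling (1.60 ± 0.08), ZFP36, which speeds the decay of inflammatory messages (1.55 ± 0.07), and ANGPTL4, a lipase inhibitor (1.48 ± 0.08). Without GSK591 with Dex replicate 2, 15 of the 16 kept their call by edgeR, and 14 kept it whichever library was left out. The list was drawn from known targets and these libraries had been examined before it was made, so it is no independent evidence of direction.

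In the same contrast, where 12.5% of all genes were called, 1 of the 15 chaperones and cochaperones of the receptor was called higher, DNAJB1, a cofactor of HSP70 (0.38 ± 0.07 SE), and 4 lower: FKBPL, an immunophilin-like HSP90 partner (-0.93 ± 0.19), the kinase-client adaptor CDC37 (-0.40 ± 0.10), PTGES3, the p23 cochaperone that stabilises the mature receptor complex (-0.32 ± 0.09), and HSPA8 (-0.21 ± 0.07). The list median was -0.10. DNAJB1 lost its call with library size alone (0.20, adjusted p = 0.151). PTGES3 and HSPA8 lost theirs in some comparisons with a library left out and with DESeq2 (adjusted p = 0.0511 and 0.0955). The other coactivators had 1 of 14 called, CREBBP, the acetyltransferase that NCOA proteins recruit (0.33 ± 0.08, adjusted p = 0.0023), and a median of 0.02. With library size alone CREBBP was not called (0.14, adjusted p = 0.33). Of 12 other corepressors, RCOR1, a subunit of the CoREST complex, was higher (0.65 ± 0.11), HDAC3, the deacetylase that NCOR1 binds, was lower (-0.59 ± 0.10), and NR0B1, an orphan receptor that represses other nuclear receptors, was lower (-0.43 ± 0.07), with a median of -0.01. None of the 6 tested genes for steroid enzymes and related receptors was called.

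At 3 h several chaperone genes were higher, as FKBP4 was. Against 15 min, 7 of 15 were called higher and none lower for each inhibitor, where 6.41% of all genes were called for GSK591 and 12% for MS023 in either direction, with a median of 0.33 for both against -0.01 over all genes. The cochaperone STIP1, which passes the receptor from HSP70 to HSP90, rose by 0.55 ± 0.10 (SE) with GSK591 and 0.47 ± 0.10 with MS023, and DNAJA1, another HSP70 cofactor, by 0.66 ± 0.15 and 0.74 ± 0.16. DNAJB1 rose by 0.33 ± 0.09 and 0.44 ± 0.09, and the ubiquitin ligase STUB1 by 0.52 ± 0.11 and 0.58 ± 0.11, though 42.4% of its exon bases are shared with JMJD8. AHSA1 and HSPA8 were called with both inhibitors, PTGES3 with GSK591 and HSP90AA1 with MS023. With each inhibitor 8 of the 15 were not called, and 10 lay above 0 with GSK591 and 12 with MS023. HSP90AB1 was at -0.33 ± 0.13 and -0.13 ± 0.14 and CDC37 at -0.32 ± 0.13 and -0.08 ± 0.14, GSK591 first. Only STIP1 of the 7 kept its call with GSK591 whichever library was left out, and 3 of the 7 did with MS023. With library size alone 2 of the 7 calls were lost with GSK591 and 5 with MS023, STIP1 among the latter (0.32, adjusted p = 0.157).

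In the same 3 h comparisons against 15 min, 6.41% of all genes were called for GSK591 and 12% for MS023. Of the 12 other corepressors, 2 were called higher and 1 lower with GSK591, and 3 higher and 1 lower with MS023. RCOR1 rose (0.92 ± 0.14 SE with GSK591 and 1.11 ± 0.16 with MS023) and NR0B1 rose (0.32 ± 0.10 and 0.40 ± 0.10). NR0B1 lost its call with each inhibitor when some library was left out and with library size alone. NCOR1 itself was at -0.13 ± 0.10 and 0.02 ± 0.10 in the same comparisons. Of the 19 other targets, CEBPD, a transcription factor of the acute phase response, rose (0.69 ± 0.11 and 1.24 ± 0.12), and 4 fell with each inhibitor. On the log2 scale PER1 fell by 0.87 and 0.91, ANGPTL4 by 0.41 and 0.73 and HIF3A, whose group means at 3 h were only 0.44 and 0.46 CPM, by 2.11 and 2.02. The ANGPTL4 call with GSK591 and the HIF3A call with each inhibitor were lost when some library was left out. The other coactivators had none of 14 called for GSK591 and 1 for MS023.

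**Figure D5:**
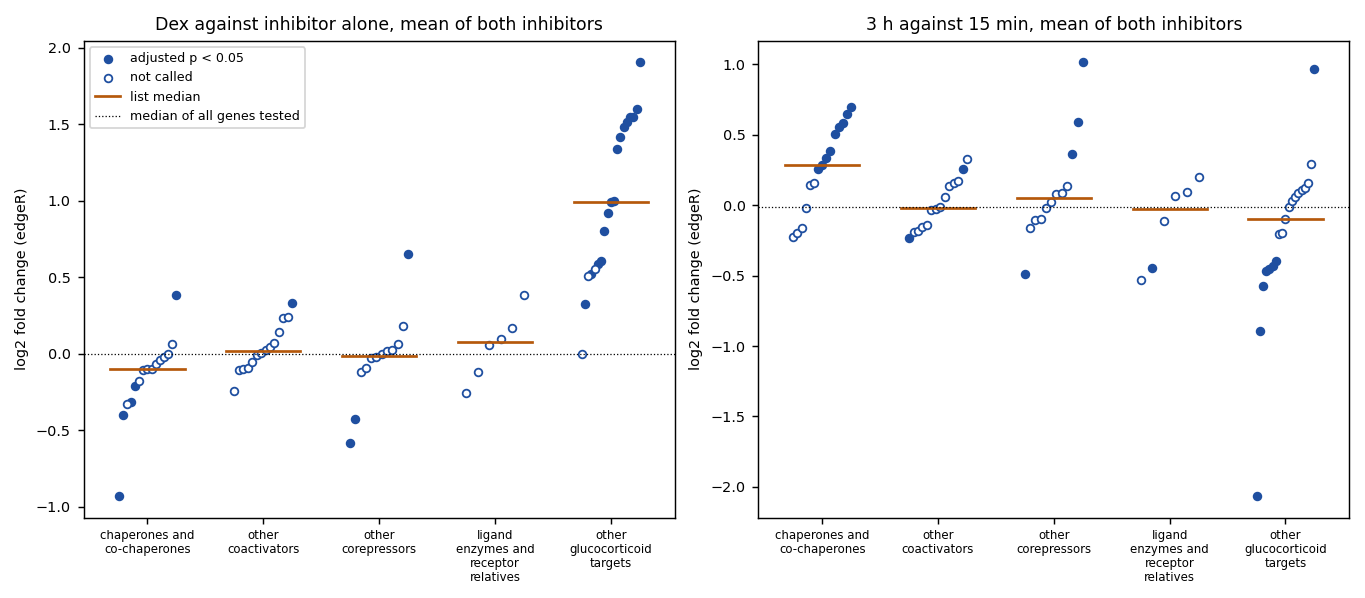
Log2 fold change (y axis) of every tested gene in the 5 lists (x axis) for Dex (left) and for 3 h against 15 min (right), each averaged over both inhibitors, with filled points for an adjusted p under 0.05, an orange bar for the list median and a dotted line for the median of all genes. Targets sit high on the left (16 of 19 filled, where 12.5% of all tested genes were called). Chaperones sit high on the right (9 of 15 filled, where 18.1% of all tested genes were called). The comparison on the right was added after the data were seen.

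The genes whose pattern over the 14 libraries was most like that of a member were found by Pearson's r of log2(CPM + 1) among the 13517 genes that averaged 5 CPM or more, as a description, since the libraries of a group share their treatment. For TSC22D3 they were MT2A (0.995), PER1 (0.992) and KLF6 (0.99), and the same 3 came first with library size alone. For FKBP5 they were AC026461.3 (0.956), CAVIN2 (0.955) and TMSB10 (0.951), of which the first 2 stayed with library size alone. For NR3C1 they were TMEM263 (0.844), SLX9 (0.843) and SMAD6 (0.838), and with library size alone 3 other genes came first.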

How the data were processed

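The deposited table holds raw read counts per gene for 14 PRO-seq libraries of A549 cells. Per the submitters' processing notes, featureCounts 2.0.1 (Subread) made counts and DESeq2 was used. The aligner, counting feature and strand setting are not given in the sources used here. All identifiers are in GENCODE release 29 (GRCh38), the source of coordinates and exon lengths. The authors' 6 deposited comparison tables hold log2 fold changes with standard errors, p-values, a test score and a mean signal (baseMean), per the file headers.

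Counts were tested with edgeR 4.0.16 (R 4.3.3): TMM scaling, filterByExpr (21910 genes), quasi-likelihood fit of all 14 libraries with 1 coefficient per group (7 residual degrees of freedom, biological coefficient of variation 0.073), and Benjamini-Hochberg adjustment over all genes within a contrast, called under 0.05. Intervals are at 95%. Alternatives were DESeq2 1.42.0, its size factors, library size alone, mitochondrial genes removed, no count filter, a replicate block, fits of the compared groups alone and each library left out. Functions were tested on simulated data. Outside the 10 genes, list genes called in the averaged Dex contrast or in both contrasts of 3 h with 15 min were named, at most 4 of smallest p per list, and others with a small count. FKBP4 and NCOA2 had no promoter entry. The members and lists were chosen with earlier results of these data known. One listed gene that the naming rule picks is not reported here.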

Additional observations from a re-analysis of the deposited data

Results flagged for a closer look

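Of the lists and the 10 members, only CEBPD, a listed glucocorticoid target, was called by the test of whether Dex responses differed between inhibitors. With 2 libraries a group, this does not show that the other genes responded alike. For CEBPD the response beside GSK591 minus that beside MS023 was -0.95 ± 0.16 (SE) on the log2 scale (edgeR adjusted p = 0.00101). Dex raised it by 0.52 ± 0.12 beside GSK591 and by 1.47 ± 0.12 beside MS023. Before Dex the GSK591 libraries averaged 64.4 ± 8.5 CPM and the MS023 libraries 45.8 ± 4.2 CPM (SD over 2 libraries each), itself a called difference at 15 min (0.50 ± 0.12, edgeR adjusted p = 0.0259), and with Dex it was 92.5 ± 17.0 and 126.6 ± 15.0 CPM. The test of the difference uses these 15 min libraries. The call was lost without GSK591 15 min replicate 1 (-0.81, adjusted p = 0.0524) or MS023 15 min replicate 1 (-0.85, adjusted p = 0.063), and over all its alternatives the adjusted p ran from 2.09e-06 to 0.063. Leaving out any of the 4 Dex libraries, or replicate 2 of either inhibitor at 15 min, did not end it.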

How the results depend on the processing

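The number of the 10 genes called changed by over 1.5 times with library size alone: 4 for Dex beside GSK591 and 4 in the Dex average, where NR3C1 and FKBP4 were added, 1 for MS023 at 3 h against untreated and 1 for GSK591 at 3 h against 15 min. With each library left out in turn the number ran from 1 to 2 for Dex beside MS023, 0 to 1 for the Dex difference, 1 to 2 for MS023 at 3 h against untreated, 1 to 2 for GSK591 at 3 h against 15 min, 2 to 4 for the average at 3 h and 0 to 1 for its difference. For GSK591 at 3 h against untreated and for MS023 at 3 h against 15 min, the number was also lower than with all libraries, whichever library was left out. The cause was not tested beyond the fewer libraries of each such fit. Where it leaves 1 library in a group, that library is assumed to vary like the other groups. Of the 25 called member results, 102 values with a library left out kept the call and 22 lost it, and 167 values under the other alternatives kept it and 8 lost it, and no called member or list gene changed sign. Replicate numbers are names: over 21 pairs of groups, deviations of same-numbered libraries correlated at -0.07 to 0.10. With the replicate block the member calls were as before, except that NR3C1 was called lower for Dex beside GSK591 (-0.34, adjusted p = 0.0455). Library size alone moved the split of all called genes from 313 higher and 498 lower to 98 and 1374 for Dex beside GSK591, from 1293 and 673 to 533 and 1317 beside MS023, from 1415 and 1329 to 473 and 3919 in the Dex average, from 799 and 606 to 582 and 130 for GSK591 at 3 h against 15 min, from 1676 and 964 to 778 and 1391 for MS023, from 1588 and 831 to 1960 and 197 for GSK591 at 3 h against untreated, and from 1184 and 488 to 850 and 151 for MS023. DESeq2 called fewer genes than edgeR: 412, 1096 and 1585 against 811, 1966 and 2744 for Dex beside GSK591, beside MS023 and averaged, 624 and 1510 against 1405 and 2640 for 3 h against 15 min, and 1342 and 952 against 2419 and 1672 for 3 h against untreated, GSK591 first. With the compared groups fitted alone, Dex beside GSK591 called 385 genes. With a library left out, the count over all genes reached 339 for Dex beside GSK591, 641 beside MS023, 388 to 665 and 1160 to 1789 for 3 h against 15 min (GSK591 first), and 8 to 490 for the Dex difference (252 with all libraries and 69 with library size alone). Without replicate 1 of GSK591 with Dex, by contrast, the count for Dex beside GSK591 was above that with all libraries. FKBP5 and NCOA1, with 37 to 135 and 42 to 74 reads, are the members whose precision depth limits most.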
